A study of Mus musculus with 32 samples.

Results

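The strain difference in allele expression was measured in whole brain of mouse embryos at embryonic day 15 (E15), gene by gene, as the share of reads from the CAST/EiJ (CAST) chromosome against the share from the C57BL/6J (B6) chromosome. CAST/EiJ descends from wild castaneus mice, and C57BL/6J is the standard laboratory strain whose genome is the mouse reference. The genes were autosomal (chromosomes 1 to 19), averaged 20 or more informative reads per pool, and lay on the same side of an even share (50%) in both reciprocal crosses. Of 17939 genes in the embryonic table, 17304 were autosomal, 3115 of these fell under 20 reads and 14189 were tested. Of the 14189, 9858 lay on the same side in both crosses, 3606 on the CAST side and 6252 on the B6 side. The other 4331 lay on different sides or at exactly 50% in a cross.

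The embryos were F1 hybrids of the 2 strains with no other allele or treatment. F1i embryos had CAST mothers and B6 fathers. F1r embryos had B6 mothers and CAST fathers. Each cross gave 1 RNA pool of 4 to 5 embryos, sequenced as 4 technical replicates that the authors summed. Brains of the parental strains at the same age gave 1 pool of CAST and 1 pool of B6. For comparison, F1 adults of 5 weeks gave 8 pools of 8 to 10 animals, 1 for each cross and sex from the preoptic area (POA), a part of the anterior hypothalamus, and from the medial prefrontal cortex (PFC). The labels do not say whether both adult regions were taken from the same mice. The adult fits count the 8 pools as separate, and their p-values would be too small if they were. With 1 pool per cross, the embryonic spread of a gene comes from 2 pools only. The test draws it toward a spread shared over all tested genes, so the p-values rest on that shared spread too. An exact permutation test over 2 pools could not reach a p of 0.05.

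In an F1 animal both alleles of a gene sit in the same nucleus and meet the same transcription factors, so a steady difference in RNA between them marks a difference in cis, in or near the gene itself, such as in a promoter, an enhancer, a splice site or a base that alters RNA stability. Imprinting also makes alleles unequal, but it follows the parent: it favours CAST in one cross and B6 in the other, and cancels in the mean of the 2 crosses. A read is informative when it covers a single nucleotide polymorphism (SNP), a base that differs between CAST and B6. The CAST share is the portion of informative reads with the CAST base, in percent, and the log2 ratio is CAST over B6, positive where the CAST allele was higher.

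Examples of these bases are printed for genes described below, with 14 reference bases on each side (mm9, the mouse assembly NCBIM37, read along the transcript from 5′ to 3′). The capital letter at position 15, counted from 1 at the 5′ end, is the B6 base, and the substitution gives the B6 base first and the CAST base last. A base countable in the transcript-aligned and in the genome-aligned table was placed in 18 named genes. Bases of 8 are shown for genes the results turn on, and Klhl26 for the base at which the alignments differed most. All were chosen after their values were seen.
Mycn: agacgttcctcctcTaacaacaaggcggt
Cyt19: actgctagatctacAgccagcgcggagcc
Fn1: caggtagccaactaGgaggaaatgtactg
Sod3: gatgcctccacgaaCctccgcgcacccta
Sepw1: gagatggattctggCtgtgggtgcctccc
Syt13: tctccccaggacaaCtaggcatctatttg
Nvl: gccaccacttccacGccattgctgacgtc
Gpr153: tataacagccacctGgacccctgttagtg
Klhl26: ctgacaggtgacagAtgcagccaagtctt

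The Mycn base (T15C, chr12:12944326-12944354, minus strand, coding exon) had 77.8% CAST reads over both pools by transcript alignment and 77.7% by genome alignment. The base in Cyt19 (A15G, chr19:46815051-46815079, plus strand, 3′ UTR) had 80.8% and 80.1%. The base in Fn1 (G15A, chr1:71632455-71632483, minus strand, 3′ UTR) had 58.4% and 58.5%, and that in Sod3 (C15A, chr5:52760126-52760154, plus strand, 3′ UTR) had 71.1% and 70%. On the B6 side, the base in Sepw1 (C15G, chr7:16502747-16502775, minus strand, 3′ UTR) had 33.4% and 33.0% CAST reads. The base in Syt13 (C15T, chr2:92795466-92795494, plus strand, 3′ UTR) had 19.5% and 17.4%. The base in Nvl (G15A, chr1:183065074-183065102, minus strand, coding exon) had 32.5% and 31.1%, and that in Gpr153 (G15C, chr4:151658429-151658457, plus strand, 3′ UTR) had 27.0% and 26.4%. The base in Klhl26 (A15G, chr8:72974847-72974875, minus strand, 3′ UTR) had 90.8% by transcript alignment and 67.0% by genome alignment. Of all 18 placed bases, the alignments lay within 5 percentage points at 15 and further apart at 3. The other bases beyond 5 points were in Rpl27a, at 51.2% by transcript and 33.3% by genome alignment, and in Sfi1, at 84.4% by transcript and 70% by genome alignment.

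The autosomal tables held 10800783 informative reads in the F1i pool and 11079998 in the F1r pool, of which 48.1% and 47.8% carried the CAST base. The tested genes had a median of 304 reads per pool, from 20 to 43672.5. Marker lists were read as a check of the tissue. Levels are given per 1000000 autosomal informative reads, for autosomal markers in the table. Of 30 immature neuron markers 26 were there and took 12968 reads in F1i and 9226 in F1r, and 28 of 30 neural progenitor markers took 3246 and 3776. GABAergic neuron markers (21 of 24) took 1715 and 1414. Markers of other cells were present too: 13 of 22 for red blood cells (2383 and 2828) and 20 of 21 for meninges and choroid plexus (2916 and 3770). Those of endothelial and mural cells (26 of 27) took 806 and 747 and those of microglia (14 of 21) 249 and 302. These are sums over lists of unequal size, and only reads over SNPs count, so they do not rank the cell types. Both alleles of a gene were read from the same RNA in each pool.

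Most genes were close to even. The median CAST share was 48.8% in F1i, 48.1% in F1r and 48.5% in the mean of both, and 90% of the genes lay between 36.0% and 63.5% by the 5th and 95th percentiles. The gap between the crosses had a median of 4.23 percentage points. A gene was called when edgeR's quasi-likelihood test gave a Benjamini-Hochberg adjusted p under 0.05 and both crosses lay on the same side. By this rule 1655 of 14189 genes were called, 11.7%. The CAST allele was higher in 549 (3.87%) and the B6 allele in 1106 (7.79%). The unadjusted p was under 0.05 for 4126 genes.

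The 2 directions differed in size and depth. The CAST-higher calls had a median CAST share of 68.8%, a log2 ratio of 1.14, at a median of 259 reads per pool. The B6-higher calls had a median CAST share of 38.5%, a log2 ratio of -0.68, at 696.5 reads. At least 70% of reads came from the same strain in both crosses in 214 CAST-higher and 61 B6-higher calls, at least 80% in 120 and 8, and at least 90% in 47 and 0. Every SNP listed had at least 1 read in each pool. A gene with little RNA from the CAST chromosome may lack a listed SNP, and the part of SNP choice in these counts was not tested. The excess of B6-higher calls depended on the scaling. With each allele column scaled by TMM, which sets the bulk of genes to even and moves the median log2 ratio to -0.0027 from -0.09, 951 CAST-higher and 948 B6-higher genes were called, and against the median log2 ratio 676 and 612. The count itself depended on the fit: 0 genes were called when X-linked genes joined the fit, with 3126 at an unadjusted p under 0.05, and 1344 when that fit estimated the spread robustly.

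**Figure D1:**
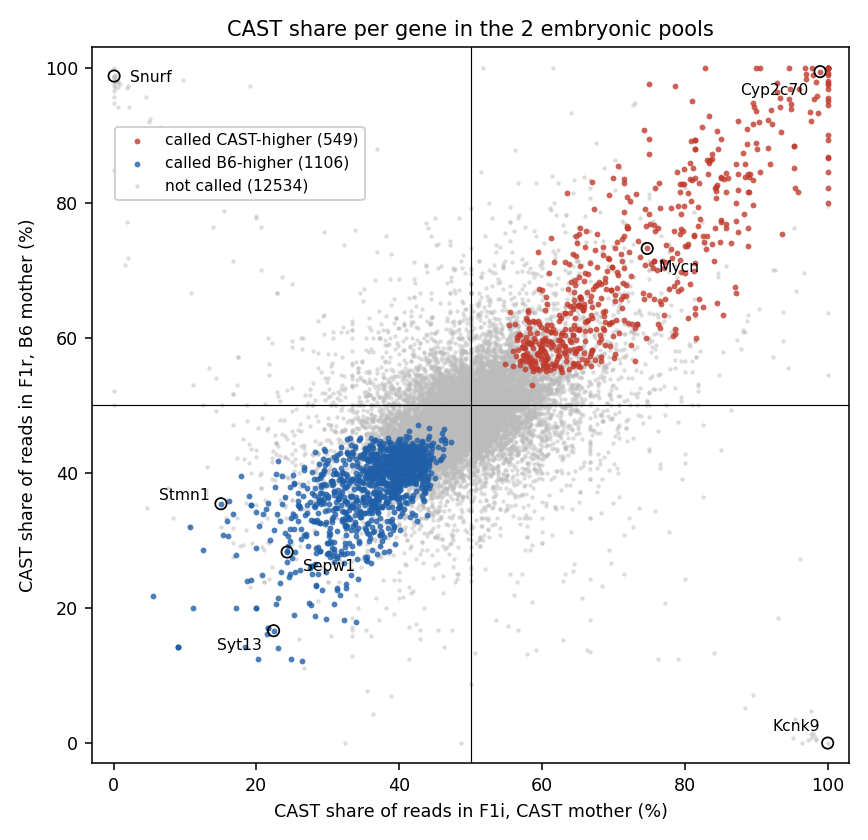
CAST share of informative reads in the F1i pool (x axis, percent) against the F1r pool (y axis, percent), 1 point per tested autosomal gene. The 549 CAST-higher calls (red) lie at the upper right and the 1106 B6-higher calls (blue) at the lower left, whereas imprinted genes such as Snurf and Kcnk9 lie in the other corners and are not called.

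Among the CAST-higher genes under a gene symbol with the smallest adjusted p, several were nearly silent on the B6 chromosome. Transcripts under an accession, Rik, Gm, LOC or EG name were left out of this choice. Cyp2c70, a cytochrome P450 that makes muricholic bile acids in mouse liver (chr19:40227843-40261823), had 93 CAST and 1 B6 reads in F1i and 168 CAST and 1 B6 reads in F1r. Its CAST share was 98.9% and 99.4% (log2 6.85 ± 0.40, edgeR adjusted p = 0.00055). Both pools were almost purely CAST, and the CAST parent had 32 CAST-base reads where the B6 parent had 0 B6-base reads. Sirpb1, a signal-regulatory membrane protein (chr3:15371656-15426520), had 48 CAST and 2 B6 reads in F1i and 125 CAST and 4 B6 reads in F1r, a CAST share of 96.0% and 96.9%. Only 1 SNP of Sirpb1 had at least 10 reads in each pool, and it had no genome-aligned recount. Dynlt1, a dynein light chain with near-identical copies on chromosome 17 that can share reads, had 266 CAST and 34 B6 reads in F1i and 318 CAST and 32 B6 reads in F1r. In its CAST parent 7.95% of the reads carried the B6 base, and the part of other copies in these shares was not tested.

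Mycn, a MYC family transcription factor that drives growth of neural progenitors (chr12:12942902-12948720), had 553 CAST and 187 B6 reads in F1i and 670 CAST and 245 B6 reads in F1r. The CAST share was 74.7% and 73.2%, a 2.84-fold excess (log2 1.51 ± 0.12, edgeR adjusted p = 0.00126). The pools lay within 1.51 points of each other, while its 5 SNPs with at least 10 reads per pool ranged from 58.3% to 78.0% and the genome-aligned recount gave 64.4%. Wdfy1, an endosomal FYVE-domain protein (chr1:79698837-79772718), had 455 CAST and 145 B6 reads in F1i and 439 CAST and 140 B6 reads in F1r. The CAST share was 75.8% in each pool (log2 1.65 ± 0.12, edgeR adjusted p = 0.00109) and all 8 of its SNPs were on the CAST side in both pools. Sfi1, a centrin-binding protein of the centrosome (chr11:3031853-3093466), had a CAST share of 71.0% in F1i and 72.5% in F1r, with all 23 of its SNPs on that side. In the CAST parent, however, 11.1% of the Sfi1 reads carried the B6 base.

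Cyt19, an older symbol of the arsenite methyltransferase As3mt (chr19:46781933-46815585), had 448 CAST and 144 B6 reads in F1i and 423 CAST and 170 B6 reads in F1r. Its CAST share was 75.7% and 71.3% (log2 1.47 ± 0.13, edgeR adjusted p = 0.00163), and all 10 SNPs lay on the CAST side in both pools. Cyt19 and the other genes of this paragraph were named by a rule that required such agreement of their SNPs, so it is no support for them. Hddc3, a metal-dependent hydrolase of the stringent-response nucleotide (chr7:87488023-87490983), was at 80.4% and 81.4%. Csl, a citrate synthase-like gene, was at 89.0% and 83.9%. The SNPs of Csl ran from 59.8% to 100%, and its genome-aligned recount held 16 reads per pool. B9d1, a protein of the ciliary transition zone, was at 79.3% and 71.6%, and Apitd1, a centromere and DNA repair protein, at 77.0% and 70.3%. Veph1, a protein named for its expression in the ventricular zone, was at 83.2% and 75%, and Atp10d, a phospholipid flippase, at 76.8% and 71.3%. The translation initiation factor gene Eif5b had the widest gap of this group apart from Klhl26, at 80.7% in F1i and 68.0% in F1r. In its CAST parent 11.8% of the Eif5b reads carried the B6 base.

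Some of the strongest CAST-higher values differed between the alignments. Slc7a11, the cystine-glutamate exchanger, had a CAST share of 97.5% and 93.5% by transcript alignment (log2 4.54 ± 0.32) but 42.2% over the 113.5 genome-aligned reads per pool. Its SNPs ranged from 42.6% to 99.1%, and 3 of 6 were on the CAST side in both pools. Spast, which encodes the microtubule-severing ATPase spastin, rested on 1 SNP at 98.0% and 98.9%, against 40.5% over 2724.5 genome-aligned reads. The ribosomal protein gene Rpl7, at 80.2% and 73.6%, had 41.2% by genome alignment, and Klhl26, a Kelch-like gene at 88.8% and 73.6%, had 54.5%. The values of these 4 genes are therefore uncertain. Ftl2, a second ferritin light chain gene at 74.4% and 79.0%, was on the CAST side in the recount too, at 86.7% over 110 reads per pool, but it is a near copy of the main ferritin light chain gene, whose reads could not be told apart from its own.

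**Figure D2:**
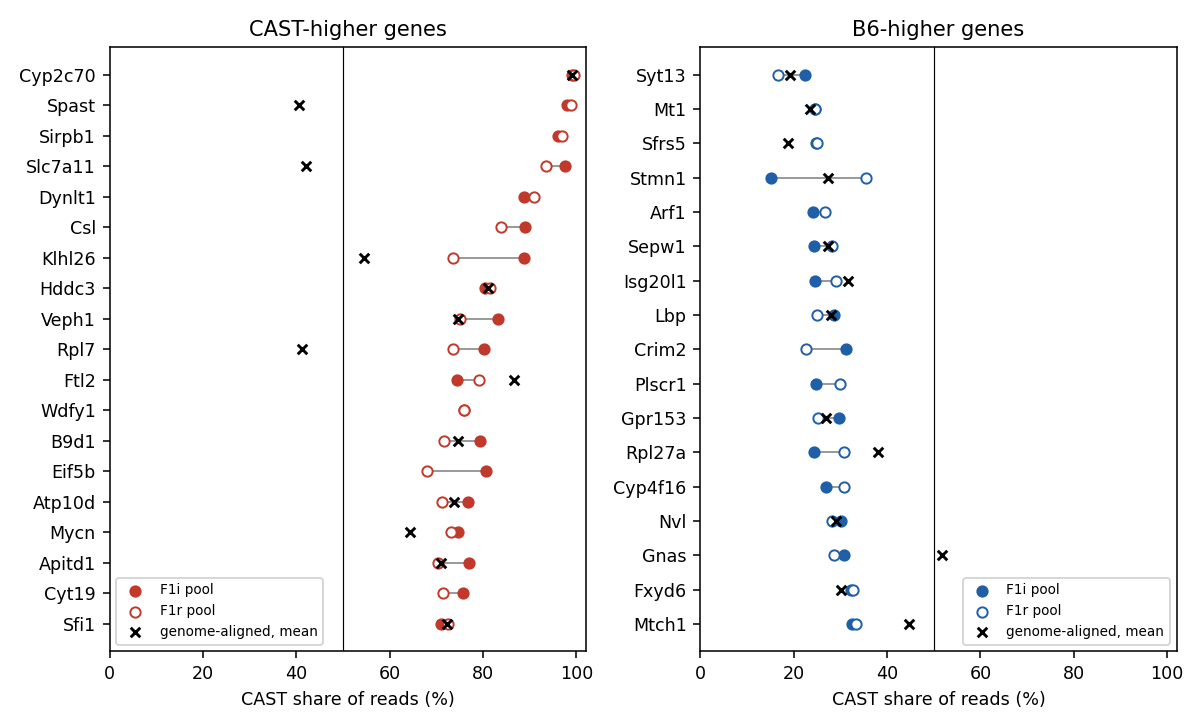
CAST share (percent of informative reads) in the F1i pool (filled) and the F1r pool (open) of named CAST-higher genes (left) and B6-higher genes (right), with the mean of the genome-aligned recount as a cross where it had at least 20 reads per pool. Most pairs lie within a few points, the crosses of Spast, Slc7a11, Rpl7 and Gnas lie on the other side of 50%, and Stmn1 has the widest gap.

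On the B6 side the call under a gene symbol with the smallest adjusted p was Sepw1 (chr7:16502557-16507751). This gene encodes selenoprotein W, a small selenium-containing protein abundant in muscle and brain. It had 5332 CAST and 16599 B6 reads in F1i and 2720 CAST and 6897 B6 reads in F1r. The CAST share was 24.3% and 28.3%, a 2.81-fold excess of B6 (log2 -1.49 ± 0.08, edgeR adjusted p = 0.000521). All 5 SNPs lay on the B6 side in both pools, and the genome-aligned recount gave 27.5%.

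Syt13, an atypical synaptotagmin of vesicle traffic (chr2:92755255-92796215), had 180 CAST and 623 B6 reads in F1i and 87 CAST and 436 B6 reads in F1r. The CAST share was 22.4% and 16.6%, a 4.12-fold excess of B6 (log2 -2.04 ± 0.16, edgeR adjusted p = 0.00125). Its 8 SNPs lay between 17.9% and 23.4%, the parental strains differed by -2.77 in log2, and the genome-aligned recount gave 19.3%. Mt1, a metallothionein that binds zinc and copper (chr8:96702989-96704225), had 176 CAST and 540 B6 reads in F1i and 256 CAST and 784 B6 reads in F1r. It stood at 24.6% in each pool (log2 -1.62 ± 0.12, edgeR adjusted p = 0.00107), with 4 of 4 SNPs on the B6 side.

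Nvl, an ATPase of ribosome assembly (chr1:183023554-183074288), had a CAST share of 30.2% in F1i and 28.2% in F1r, with 21 of 21 SNPs on the B6 side. Fxyd6, a regulator of the sodium pump in brain (chr9:45178268-45204241), had 1648 CAST and 3453 B6 reads in F1i and 1540 CAST and 3170 B6 reads in F1r, a CAST share of 32.3% and 32.7%. Gpr153, an orphan G protein-coupled receptor (chr4:151648341-151659446), was at 29.8% and 25.3% with 8 of 8 SNPs on that side. Agreement of all SNPs was a condition of a rule that named Gpr153, so it is no support. Isg20l1, a nuclease gene, was at 24.5% and 29.1%. Smaller groups of reads gave Lbp, the lipopolysaccharide-binding protein, 28.6% and 25.0%, Crim2, a chordin-like secreted protein, 31.2% and 22.7%, Plscr1, a phospholipid scramblase, 24.7% and 29.9%, and the cytochrome P450 gene Cyp4f16 27.0% and 30.7%.

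Arf1, a GTPase of Golgi traffic, at 24.2% and 26.8%, and Sfrs5, a splicing factor at 24.7% and 25.1%, each rested on 1 SNP. Stmn1, the microtubule-destabilising protein stathmin of growing neurons, had 4403 CAST and 24869 B6 reads in F1i and 20576 CAST and 37497 B6 reads in F1r. Both pools were on the B6 side, but at 15.0% and 35.4% they lay further apart than those of any other gene named here as B6-higher (log2 -1.68 ± 0.32, edgeR adjusted p = 0.019), and its genome-aligned recount held 40.5 reads per pool. Gnas, the stimulatory G protein alpha subunit, was at 30.9% and 28.7%, but 1 of 3 SNPs was on the B6 side in both pools and the recount gave 51.7%. Mtch1, an outer mitochondrial membrane protein at 32.4% and 33.3%, had 44.8% in the recount. The ribosomal protein gene Rpl27a was at 24.4% and 30.7%.

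Of 93 named calls followed through the alternative settings, 15 kept their call in each one run for them other than the fit with X-linked genes, which ended every call. These were Cyp2c70, Dynlt1, Ftl2, Wdfy1, Sfi1, Sirpb1, Mycn, Csl and Cyt19 on the CAST side and Sepw1, Arf1, Mt1, Sfrs5, Syt13 and Nvl on the B6 side. Not every setting could be run for each, since genes absent from the adult tables or from the genome-aligned recount had fewer.

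Gene groups were counted next, beside the 11.7% called among all tested genes. Many of their named calls were small. Scaling by TMM ended 10 of the 93 followed calls and the test against the median log2 ratio ended 18, B6-higher in each case. Among those that ended under both were Rpl4, Rpsa, Nes, Tubb3, Chl1, Stat3, Ifitm2, A930034L06Rik and C330002I19Rik. Cytosolic ribosomal proteins had the highest share of calls of the lists read. Of 58 tested members 7 were CAST-higher and 13 B6-higher, 34.5%, at a median of 2693 reads per pool and a median CAST share of 47.5%. Calls were more frequent at that depth: 17.5% of all genes with at least 500 reads per pool were called. Rpl7a was at 39.05% in F1i and 37.99% in F1r (log2 -0.67 ± 0.07, edgeR adjusted p = 0.00207), Rpsa at 42.6% and 47.1%, Rps6 at 45.9% and 42.0% and Rpl4 at 45.8% and 44.8%. Ribosomal protein genes have many processed copies in the genome, whose reads 36 cycles long may not separate.

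Neuronal and progenitor genes were called in both directions at small sizes. Among 27 neural progenitor genes 1 was CAST-higher and 4 were B6-higher. Ccnd2, a cyclin of dividing progenitors, had a CAST share of 39.1% in F1i and 42.5% in F1r, Lhx2, a transcription factor that patterns the cortex, 35.4% and 39.3%, and Nes, the intermediate filament nestin, 44.2% and 42.0%. Aspm, a spindle protein whose loss causes small brains, was on the CAST side at 57.9% and 57.7%. Among 24 immature neuron genes 2 were CAST-higher and 3 B6-higher. Ncam1, a neural cell adhesion molecule, had 12890 CAST and 10173 B6 reads in F1i and 7970 CAST and 6323 B6 reads in F1r, which gave 55.9% and 55.8% (log2 0.34 ± 0.06, edgeR adjusted p = 0.0124). Dab1, the adaptor of reelin signalling, was at 61.5% and 56.1%. The microtubule protein tau, from Mapt, was at 46.1% and 42.5% and the neuronal tubulin Tubb3 at 47.3% and 44.6%. The calls of Nes and Tubb3 ended under both changes of scaling.

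Of 20 tested genes of GABAergic neurons 3 were CAST-higher and 1 B6-higher, and the median CAST share of the list was 53.2% where all tested genes had 48.5%. Gad1, which encodes an enzyme that makes GABA (chr2:70391129-70440071), had 1167 CAST and 678 B6 reads in F1i and 2194 CAST and 1442 B6 reads in F1r. The CAST share was 63.3% and 60.3% (log2 0.69 ± 0.11, edgeR adjusted p = 0.00978), and the genome-aligned recount gave 61.2%. Its 10 SNPs ran from 38.3% to 97.0%, 3 of them on the CAST side in both pools, and the call ended when only SNPs at least a read length apart or only the deepest SNP were counted, as well as with no filter on low counts. Calb2, the calcium-binding calretinin, was at 59.4% and 57.7%, and Npy, neuropeptide Y, at 57.7% and 57.4% with 50.6% in the recount. The transcription factor gene Sp9 was on the B6 side at 43.2% and 38.7%.

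Axon guidance genes gave 0 CAST-higher and 4 B6-higher calls of 42. Plxna1, a semaphorin receptor, was at 37.5% and 41.6%, Nrp2, its co-receptor neuropilin, at 40.8% and 41.2%, the ephrin gene Efna2 at 40.0% and 43.3%, and the adhesion molecule Chl1 at 46.0% and 45.9%. Of 93 cadherins and protocadherins 2 were CAST-higher (Pcdhgb7 and Pcdhgc3) and 1 B6-higher (Pcdhga12), 3.23%. Members of the protocadherin gamma cluster share their last exons, so reads there cannot be given to one member.

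In the interferon response list 1 of 25 was CAST-higher and 4 were B6-higher. Ifngr2, a chain of the interferon gamma receptor (chr16:91547317-91565414), had 421 CAST and 1080 B6 reads in F1i and 538 CAST and 993 B6 reads in F1r, at 28.05% and 35.1% (log2 -1.12 ± 0.13, edgeR adjusted p = 0.00406). The transcription factor genes Stat3 at 41.4% and 43.1% and Irf3 at 35.8% and 38.9%, and the antiviral membrane protein gene Ifitm2 at 33.8% and 32.8%, were on the same side. Among 14 genes of MHC class I and antigen processing 2 were B6-higher, H2-Ke2 at 38.4% and 40.2% and H2-D1 at 28.3% and 23.3%. MHC genes differ in many bases between strains and have close copies, so their shares are uncertain.

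Glutathione and xenobiotic metabolism had 6 CAST-higher and 8 B6-higher calls of 73. Gstz1, a glutathione transferase of tyrosine breakdown, was at 70.2% and 65.5% (log2 1.08 ± 0.12, edgeR adjusted p = 0.0027), and Aldh1a1, a retinaldehyde dehydrogenase, at 60.4% and 64.2%. Aldh1l1, a folate enzyme of astrocytes, was at 39.2% and 41.9%. Of 60 nuclear genes of mitochondrial respiration 1 was CAST-higher and 4 B6-higher. The ATP synthase subunits differed in side, with Atp5e at 66.9% and 58.2%, Atp5d at 28.5% and 33.0% and Atp5c1 at 43.4% and 40.8%, and the complex I subunit Ndufv2 was at 39.8% and 37.4%. Of 246 genes named Zfp 4 were CAST-higher and 15 B6-higher, 7.72%, with Zfp811 at 30.9% and 36.8%, Zfp157 at 40.9% and 39.6%, Zfp426 at 36.7% and 40.2% and Zfp260 at 36.1% and 45.2%.

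Lists of other cell types in the brain are small, and held 1 call each: 4.35% of endothelial and mural, 5% of meninges and choroid plexus, 10% of red blood cell and 7.14% of microglial genes tested, where 11.7% of all genes were called. Rgs5, a regulator of G protein signalling in pericytes, was at 36.5% and 31.4% and was the 1 call of 23 endothelial and mural genes. Dcn, the proteoglycan decorin, at 28.8% and 36.0%, was the 1 call of 20 genes of meninges and choroid plexus. Fech, the last enzyme of haem synthesis, at 40.1% and 40.7%, was the 1 call of 10 genes of red blood cells. Itgam, a microglial integrin, was the 1 call of 14 microglial genes, at 84.2% and 82.1%. Its values came from 32 CAST and 6 B6 reads in F1i and 23 CAST and 5 B6 reads in F1r.

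Transcripts listed under an accession or a Rik or Gm name were also called. Of 1780 named by an accession 140 were CAST-higher and 105 B6-higher, and of 1224 with a Rik or Gm name 64 and 100. AK051573 on chromosome 13 had 6118 CAST and 3013 B6 reads in F1i and 5791 CAST and 3403 B6 reads in F1r, at 67.0% and 63.0%. AK019083 on chromosome 19 was at 46.1% and 45.2%. Of the Rik names, A930034L06Rik (annotated as Snhg11) was at 46.3% and 46.6%, C330002I19Rik (Kidins220) at 44.2% and 46.6%, and 4921506J03Rik (Atxn7l3b) at 37.5% and 40.8%. The remaining 3 of this kind, and A930034L06Rik, changed side under another setting. NR_003363 was at 54.9% and 56.2%, with a log2 ratio of -0.12 at its deepest SNP, where A930034L06Rik had 0.37. NR_002886 was at 41.6% and 42.0%, with 1 of 3 SNPs on the B6 side in both pools and a log2 ratio of 2.96 in the fit of all 10 pools. 5730427N09Rik (Nsa2), at 64.4% and 56.2%, had a log2 ratio of -1.99 in the genome-aligned recount.

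**Figure D3:**
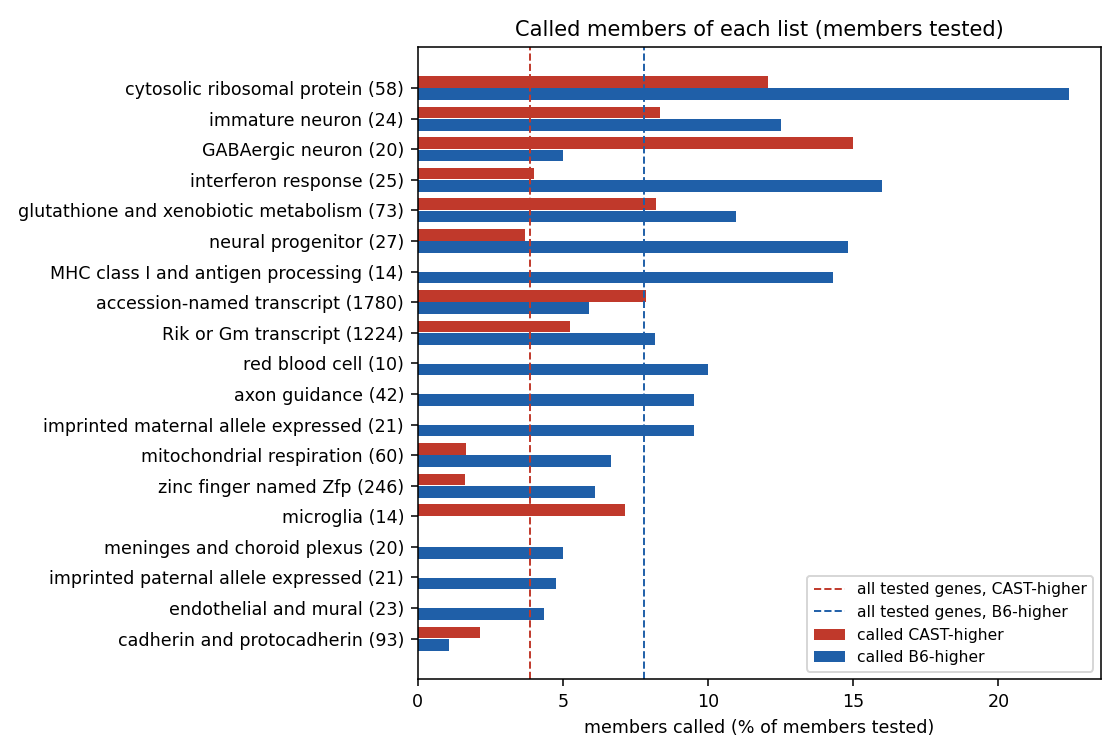
Percent of tested members called CAST-higher (red) and B6-higher (blue) in each gene list, with the number tested in parentheses, and dashed lines at the 3.87% and 7.79% of all tested genes. Ribosomal protein genes have the longest bars together, and cadherins and protocadherins the shortest.

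Imprinted genes were read to show how the rule treats them. The 4 described first are those of the lists with the widest gap between crosses. A gene on different sides in the 2 crosses could not be called, so their lack of a call was set by the rule. Peg3, a paternally expressed zinc finger gene, had 4 CAST and 3619 B6 reads in F1i and 3766 CAST and 50 B6 reads in F1r. Its CAST share was 0.110% in F1i and 98.7% in F1r, and it was not called (log2 -0.85 ± 10.15, edgeR adjusted p = 0.967). Snurf at 0.0836% and 98.8%, Rasgrf1 at 0% and 98.6% and Kcnk9 at 100% and 0% were not called either. On the list of maternally expressed genes 2 of 21 tested were called, Gnas and Dcn, and on that of paternally expressed genes 1 of 21, the synaptic scaffold gene Magi2, at 36.3% and 43.7%. All 3 were B6-higher.

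The SNPs of a gene were compared with one another. Among SNPs with at least 10 reads in each pool, 11720 of 14315 in called genes lay on the side of their gene, 81.9%, and 54304 of 86937 in the other tested genes, 62.5%. The SNPs are part of the gene's own sum, so these shares describe and do not test. Every such SNP lay on the side of the gene in 431 of 1305 called genes with at least 3 SNPs, 33.0%, and in 738 of 8390 other genes, 8.80%. Epm2aip1, a CAST-higher gene on chromosome 9 at 56.95% ± 0.422 (SD, n = 2 pools), was the 1 called gene with at least 2 SNPs at 75% or more for each strain, and its SNPs ran from 19.8% to 82.8%.

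The reads aligned to the genome were deposited as a separate table from the same libraries, and were summed over annotated exons as a second count. Of 1128 called genes with such a count, 1074 were on the same side, 95.2%: 249 of 284 CAST-higher and 825 of 844 B6-higher calls. The median CAST share was 59.0% for the CAST-higher and 38.2% for the B6-higher calls. Among genes on the same side in both crosses but not called, 5144 of 5886 had the same side, 87.4%. The recount leaned further to B6, with a median log2 ratio of -0.19 over all genes tested, where the transcript-aligned reads had -0.09. Reads were aligned to the B6 reference, and the part of mapping in either lean was not tested.

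**Figure D4:**
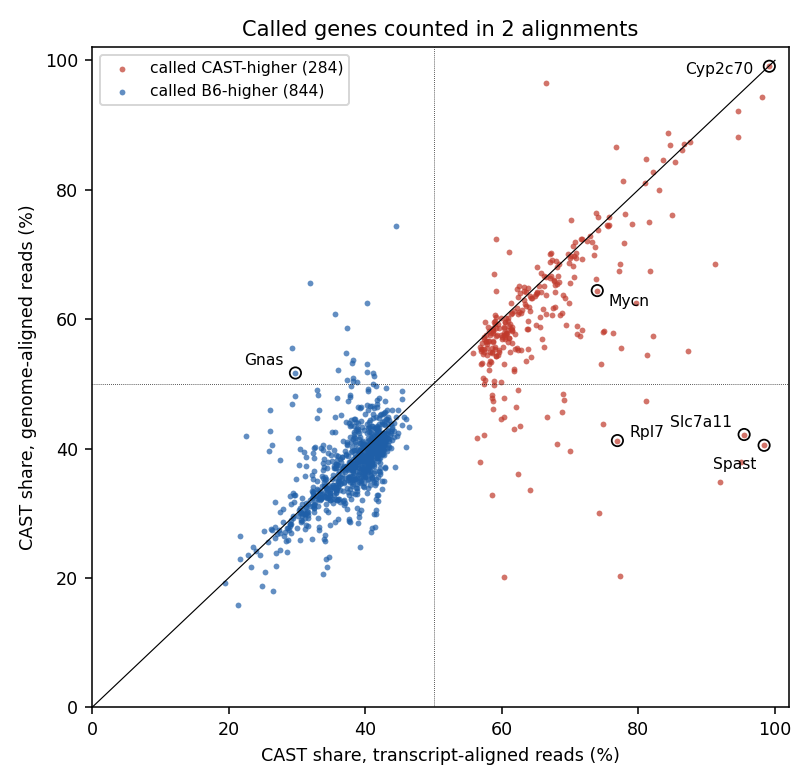
Mean CAST share of each called gene by transcript-aligned reads (x axis, percent) and by genome-aligned reads (y axis, percent), for 284 CAST-higher (red) and 844 B6-higher calls (blue) with at least 20 genome-aligned reads per pool. Most genes lie near the diagonal, and Slc7a11, Spast and Rpl7 are at the right below 50%.

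The parental strains, sequenced from other animals, were set beside the F1. The log2 ratio of CAST over B6 reads per 1000000 (pseudocount 1) had the sign of the F1 allele difference in 1471 of 1596 called genes, 92.2%. These were 469 of 491 CAST-higher and 1002 of 1105 B6-higher calls. The calls without a parental value were nearly all CAST-higher, since 549 CAST-higher and 1106 B6-higher genes were called. Among uncalled genes on the same side in both crosses 5386 of 7839 had the same sign, 68.7%. There was 1 pool per strain, so no test was made. In the CAST parent 1.39% of informative reads carried the B6 base, and in the B6 parent 0.209% carried the CAST base. These parental reads were deposited with the SNP calls, so the choice of SNPs may have kept such shares low. They are no independent estimate of error. Among called genes, 78 had more than 5% B6 bases in the CAST parent.

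The adult pools gave a CAST share in other animals, over SNPs listed at both ages. The embryonic calls set beside them used all embryonic SNPs, so the SNPs or the transcript of a gene could differ. NR_002886, 1 of the opposite calls below, was at 41.8% over all its embryonic SNPs. Over SNPs listed at both ages it was at 88.6% in the embryo and 97.0% in adults. Among 10532 genes tested in the 8 adult pools, 3469 were called (32.9%), 1220 CAST-higher (11.6%) and 2249 B6-higher (21.4%). Of the 335 CAST-higher embryonic calls that could be tested in adults, 233 had the same call, 69.6%, and 4 the opposite one. Of 969 B6-higher embryonic calls 636 had the same call, 65.6%, and 7 the opposite. These were 19.3% of the 1205 adult CAST-higher calls and 28.5% of the 2235 adult B6-higher calls that were tested in the embryo. Without regard to the test, 310 of 335 and 897 of 969 lay on the same side. A further 351 embryonic calls could not be tested in adults.

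Genes with close shares at both ages included Cyt19, at 73.5% in the embryo and 73.2% ± 2.99 in adults (SD, n = 8 pools), and Wdfy1, at 75.8% in the embryo and 76.2% ± 5.95 in adults. Dab1 was at 59.3% in the embryo and 59.3% ± 3.46 in adults, and Ncam1 at 56.7% in the embryo and 56.6% ± 2.98 in adults. The embryonic means are over 2 pools, which had SDs of 3.87 for Cyt19, 0.00916 for Wdfy1, 3.95 for Dab1 and 0.345 for Ncam1.

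The allele difference itself was then compared between ages, over all 10 pools. The E15 minus adult term passed in 68 of 10390 genes, 0.654% (edgeR quasi-likelihood, Benjamini-Hochberg adjusted). The embryo was more to the CAST side in 25 (0.241%) and more to the B6 side in 43 (0.414%). Of the 68, 38 were called in the embryo over all embryonic SNPs. Over SNPs listed at both ages, 35 had their mean shares on opposite sides of 50% at the 2 ages. Of the 33 on the same side, 22 lay farther from even in the embryo. The embryonic sample is whole brain and the adult samples are 2 regions, so age and the makeup of the tissue cannot be told apart, nor can fewer cells of a type and less RNA per cell. Immature neuron markers listed at both ages (15 of 30) took 8875 to 12914 reads per 1000000 in the embryo and 2966 to 4167 in adults, and microglial markers (12 of 21) took 210 to 224 in the embryo and 483 to 653 in adults.

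Syt13 had CAST shares of 22.4% and 16.6% in the embryonic pools. Its 4 adult POA pools lay between 48.9% and 53.0%, its 4 adult PFC pools between 42.7% and 45.2%. All 8 adult pools lay above both embryonic ones, but Syt13 was chosen by the test of this difference, so the separation adds no support. The difference was -1.87 ± 0.18 in log2 (edgeR adjusted p = 0.0003). Gpr153 had 29.6% and 25.3% in the embryo, 63.1% to 65.5% in the POA and 45.6% to 55.7% in the PFC, so its POA pools were on the CAST side, and the difference was -1.95 ± 0.25 (edgeR adjusted p = 0.00329). Mt1 was B6-higher at both ages, with 24.6% in each embryonic pool and 39.5% to 42.8% in the adult pools, a difference of -1.07 ± 0.08 (edgeR adjusted p = 2.79e-05). Ptn, the growth factor pleiotrophin of glia and vessels, had 36.1% and 40.0% in the embryo and 50% to 54.5% in adults, and Cap2, a regulator of actin, 32.7% and 35.4% in the embryo and 45.6% to 49.9% in adults.

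In the other direction, Fn1, the matrix protein fibronectin (chr1:71632094-71699774), had 2537 CAST and 1640 B6 reads in F1i and 3070 CAST and 1949 B6 reads in F1r. Over SNPs listed at both ages its CAST share was 61.3% and 61.0% in the embryo and 39.8% to 48.6% in the adult pools. The difference was 1.07 ± 0.11 in log2 (edgeR adjusted p = 0.000753), and Fn1 was called CAST-higher in the embryo and B6-higher in adults. Sod3, the extracellular superoxide dismutase (chr5:52755185-52762644), had 60.1% and 58.8% in the embryo and 32.3% to 40.1% in adults, a difference of 1.38 ± 0.16 (edgeR adjusted p = 0.00109). The embryonic lean of Sod3 did not pass on its own (adjusted p = 0.0598). Mbp, the myelin basic protein of oligodendrocytes, had 57.1% and 55.1% in the embryo and 44.1% to 49.5% in adults, although over all its embryonic SNPs it stood at 51.5% and 51.9%. Carhsp1, an RNA-binding protein, had 53.0% and 51.9% in the embryo and 34.1% to 44.4% in adults. D11Bwg0434e had 49.0% and 43.7% in the embryo and 11.1% to 27.6% in adults. At the 1 SNP of its embryonic test it stood at 46.4% and 39.7% and was not called (edgeR adjusted p = 0.255).

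Without the F1i pool of the embryo only 2 genes passed, Mt1 (-1.07, edgeR adjusted p = 0.00201) and Syt13 (-2.15, edgeR adjusted p = 0.00236). The other 8 genes named for an age difference missed the threshold without it, at adjusted p from 0.0567 for Fn1 to 0.473 for Mbp, with the same sign. With the deepest SNP of each gene alone, 7 of the 10 calls ended with the sign kept, those of Fn1 (edgeR adjusted p = 0.089), Sod3, Gpr153, Cap2, Carhsp1, Mbp and Ptn (edgeR adjusted p = 0.413), and those of Mt1, Syt13 and D11Bwg0434e passed. Leaving out the F1r pool ended the call of Carhsp1 (0.77, edgeR adjusted p = 0.0605), and 70 genes passed without it. Without the POA F1i female pool 21 genes passed and without the PFC F1i female pool 30.

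**Figure D5:**
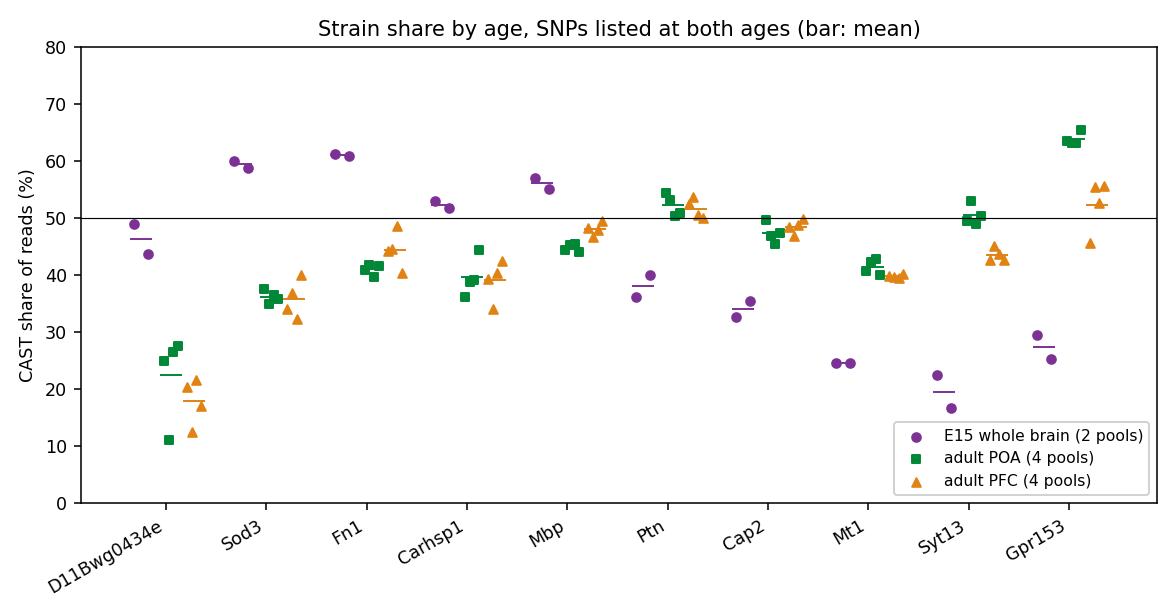
CAST share (y axis, percent of informative reads over SNPs listed at both ages) of the 10 genes named for a difference between ages, in the 2 E15 pools (circles), 4 adult POA pools (squares) and 4 adult PFC pools (triangles), with bars at the means. The E15 pools lie apart from all adult pools in each gene, above them on the left and below them on the right. The genes were chosen by the test of this difference, which makes such separation likely, and it was not counted over all tested genes.

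Calls were spread over the autosomes and depended on depth. The share called ranged from 7.73% of 440 genes on chromosome 18 to 14.8% of 520 on chromosome 14. Of 10037 pairs of adjacent tested genes both were called in 155, in the same direction in 105 (21 CAST-higher and 84 B6-higher) and in opposite directions in 50. The number of pairs that 11.7% of called genes would give without clustering was not computed, so these counts are not read as clustering. Reads carried no strand, so overlapping neighbours can share reads. Among genes with 20 to 50 reads per pool 6.39% of 1799 were called, 97 CAST-higher and 18 B6-higher, and the smallest absolute log2 ratio called was 1.36. With at least 500 reads 17.5% of 5207 were called, 200 and 712, down to a log2 ratio of 0.21. Smaller differences in genes of few reads were not detectable at this depth.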

How the data were processed

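Polyadenylated RNA was primed with random hexamers and sequenced for 36 cycles, per the labels' protocols. Reads were aligned with Novoalign to mm9, per the submitters' processing notes. The deposited values are counts of reads with the CAST and with the B6 base at each SNP, technical replicates summed by the authors. Repeat listings of a SNP (2073 for E15, 1056 for POA, 911 for PFC) were removed, and SNPs were summed over the transcript with most reads per gene. SNPs under 36 bases apart can count a read more than once. The main test was edgeR 4.0.16 (R 4.3.3), quasi-likelihood, with a term per pool and for the allele and pool totals as library sizes. It had 1 residual degree of freedom per gene, and the spread was moderated across genes. Adult and 10-pool fits used SNPs listed in all 3 tables, for which the transcript with most reads could be another. ± after a log2 value is the SE. Gene positions came from GENCODE vM1 on NCBIM37, which matched 14162 of 17939 symbols, and sequences were read with pysam 0.24.0. Named genes were, per direction, the 10 calls with the smallest adjusted p. Per direction, the 10 with the largest ratio were added, among calls with at least 100 reads per pool and at least 3 SNPs, all on 1 side in both pools. The 4 deepest calls of each list and, per direction, the 5 genes with the smallest adjusted p for age followed. The last were the 4 imprinted genes with the widest gap between crosses. Except in the lists, transcripts under an accession, Rik, Gm, LOC or EG name were left out of these choices. The members and lists were chosen with earlier results of these data known. The alternatives included TMM, DESeq2 1.42.0, other filters and SNP counts, and leaving out pools. The adult parental libraries were not used.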

Additional observations from a re-analysis of the deposited data

Results flagged for a closer look

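In 10 named genes the allele difference itself differed between the embryo and the adults in edgeR's allele by age term, given here as E15 minus adult in log2. The embryo was more to the B6 side in Gpr153 (-1.95), Syt13 (-1.87), Mt1 (-1.07), Cap2 (-0.83) and Ptn (-0.81). It was more to the CAST side in D11Bwg0434e (1.80), Sod3 (1.38), Fn1 (1.07), Carhsp1 (0.74) and Mbp (0.56). These genes were named for the smallest adjusted p of this test among genes under a gene symbol.

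Of 24 genes whose 8 adult pools were read for a pool apart from the rest, 2 had one, and chance flags about 1 in 20 groups. Hddc3 had its highest CAST share, 91.5%, in the POA F1r female pool, and Mtch1 its lowest, 37.3%, in the PFC F1i male pool.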

How the results depend on the processing

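The number of calls moved with the processing. The direction of the named genes could hardly change in settings that refit the same allele counts, and it reversed only where other reads or SNPs were counted. The 1655 embryonic calls became 698 with the deepest SNP of each gene alone, 463 with DESeq2 (276 genes without an adjusted p), 93 with no filter on low counts, 275 with at least 70% for the same strain in both crosses, 6184 with an exact binomial test that holds counting error only, and 0 with X-linked genes in the fit. Alternatives chosen after the data were seen gave 2759 with a robust estimate of the spread, 1344 with that and X-linked genes, and 2577 with the genome-aligned recount (363 CAST-higher and 2214 B6-higher). In the 10-pool fit, where a lone embryonic pool is assumed to vary like the adult ones, leaving out a cross gave 170 (without F1i) to 756 (without F1r), from 1588 with both. The 7 settings that stayed within 1.5 times gave 1182 to 1899. The cause was not tested.

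Adult calls fell to 2036 with the deepest SNP and otherwise lay between 2462 and 3932, 2840 to 3252 when pools were left out. The 68 age differences became 8 with the deepest SNP, 124 with DESeq2 (5439 genes without an adjusted p), 316 with sex and region terms, and 2 to 94 when pools were left out. The share of SNPs on their gene's side was 83.7% at 20 reads per SNP.

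Of 1405 values of named embryonic calls 959 kept direction and call, 434 kept the direction only and 12 reversed. Many of the 1405 refit the same counts. In the genome-aligned recount 4 reversed, 57 kept the call and 12 the direction only, and at the deepest SNP 5, 44 and 43. Of 157 age differences 141 kept the call, 16 the direction only and 0 reversed. The reversed log2 ratios were -0.43 for Slc7a11, -0.54 for Rpl7, -0.55 for Spast and -1.99 for 5730427N09Rik in the genome-aligned recount; 0.082 for Rps6, 0.0047 for Atp5c1, 0.32 for Pcdhga12, -0.12 for NR_003363 and 0.37 for A930034L06Rik at the deepest SNP; and 2.96 for NR_002886 over all 10 pools, 3.19 without F1i and 2.74 without F1r. No paired analysis was possible because the numbers that groups share mark technical replicates, which pair no animals and are summed in the deposited columns; the alleles were compared within pools throughout.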
